A study of Homo sapiens with 12 samples.

Results

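The interleukin 1 (IL-1) and interleukin 6 (IL-6) family cytokines were followed as 10 genes: the IL-1 family ligands IL1A, IL1B, IL18 and IL33, the IL-6 family ligands IL6, IL11, LIF and CLCF1, the shared receptor chain IL6ST, and the feedback inhibitor SOCS3. They were chosen by family and role, and their Ensembl identifiers were matched to symbols, which found 10 of the 58381 genes in the count table. A gene was tested where it exceeded 1 CPM (read counts scaled to library size) in at least 2 of the 12 libraries and had at least 300 nt of exons. This left 9 of the 10 genes among 15836 tested, and IL33 fell below the limit.

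RNA was sequenced from Hs578T and MDA-MB-231, human triple negative breast cancer cell lines, each as CD44 WT and CD44 KO cells with 3 libraries a group. CD44 is a cell surface receptor for hyaluronan, and the comparison asks what its loss does to expression in each line. The cells carried a doxycycline-inducible Cas9, with guides against exons 1 and 5 of CD44 given to the KO cells, while the control cells received Cas9 and transfection reagent without guides. Cells positive for the integrin CD29 were sorted on CD44 and expanded, so that each KO group was a sorted pool and not a clone, and all groups were held in low serum before RNA extraction. It is not stated whether a group's libraries were made from independently grown cells, so the p-values measure the spread between these libraries, which may be technical.

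IL-1 family ligands signal through paired receptors that recruit MYD88 and IRAK kinases and activate NF-kappaB. IL-1 alpha acts from the cell or its surface as a precursor, whereas IL-1 beta and IL-18 are made as inactive precursors that caspase 1 cleaves. Most IL-6 family ligands bind a private receptor and then IL6ST (gp130), which activates JAK kinases and STAT3, and SOCS3 is a STAT3 target that binds gp130 and shuts the signal off. In mesenchymal-like breast cancer cells these cytokines are known as autocrine signals and as signals to stroma and leukocytes.

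The table's genome build was GRCh38. IL1A (chr2:112773915-112784590) and IL1B (chr2:112829751-112836903) lie on the minus strand of chromosome 2, 45.2 kb apart, in a cluster of 9 ligand or antagonist genes, and 6 IL-1 receptor family genes lie in another cluster on the same chromosome. IL18 is at chr11:112143251-112164117, IL33 at chr9:6215786-6257983, IL6 at chr7:22725884-22732002, IL11 at chr19:55364389-55370463 and LIF at chr22:30240447-30246851. CLCF1 is at chr11:67364168-67374177, IL6ST at chr5:55935095-55994993 and SOCS3 at chr17:78356778-78360077. Reads were counted by strand, and CLCF1 was the only one of the 10 to share exonic bases with another gene on its strand (61 of 1975 bases).

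The RefSeq promoter of IL1B is shown because IL1B rose with CD44 KO in MDA-MB-231, and that of SOCS3 because its change differed between the lines. Each run is the 250 bases before a transcription start (GRCh38.p14, minus strand, written 5′ to 3′), with capitals for a match to the STAT motif TTCNNNGAA, the NF-kappaB motif GGGNNTTTC or the AP-1 motif TGANTCA.
IL1B, chr2:112836780-112837029: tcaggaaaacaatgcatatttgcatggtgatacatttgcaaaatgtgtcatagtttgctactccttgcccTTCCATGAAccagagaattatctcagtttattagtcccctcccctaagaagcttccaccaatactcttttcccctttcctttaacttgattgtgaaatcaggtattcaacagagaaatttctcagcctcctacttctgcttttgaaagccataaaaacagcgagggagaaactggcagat
SOCS3, chr17:78360926-78361175: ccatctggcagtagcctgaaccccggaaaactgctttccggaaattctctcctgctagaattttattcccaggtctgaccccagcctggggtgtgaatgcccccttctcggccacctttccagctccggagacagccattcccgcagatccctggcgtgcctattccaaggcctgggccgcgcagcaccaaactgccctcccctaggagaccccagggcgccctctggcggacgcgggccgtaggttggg
Of the IL1B bases, 124 lie inside the span the count table gives the gene, whereas the SOCS3 run lies outside its gene's span, and a further SOCS3 entry inside the gene is not shown. IL1B had 1 STAT match, TTCCATGAA at -180 to -172 from the start, and SOCS3 had none of the motifs in either entry. Both strands of the whole 300-base entry were searched in the 7 members with an entry (IL18, LIF and CLCF1 had none). The other matches were AP-1 matches in IL1A and IL11, an NF-kappaB match in IL6 and a STAT match in 1 of the entries of IL33. Among all 35116 promoters, 7.66% held the STAT motif, 4.78% the NF-kappaB motif and 7.71% the AP-1 motif. These matches describe the letters in these windows and are not evidence of binding.

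The libraries held 10257586 to 19725543 counts. CD44 mRNA, the targeted gene, was 494 to 527 CPM in the Hs578T CD44 WT libraries and 24.9 to 28.6 CPM in the CD44 KO libraries, and 360 to 363 CPM against 30.0 to 40.3 CPM in MDA-MB-231. In bulk samples, fewer cells expressing a gene and less RNA per cell cannot be told apart. Of 7 genes listed for breast subtype and line identity, 5 passed the expression filter. PGR had no counts in any group, ESR1 stayed below 1 CPM on average in each group and VIM was between 3862 and 6609 CPM. The levels of ERBB2, ITGB1, EPCAM and CDH1, the rest of that list, are not given, so these values alone do not settle the subtype. Of 10 leukocyte markers, CD163, AIF1 and MS4A1 had no counts, and the summed level was 5.25 to 6.17 CPM in Hs578T CD44 WT, 7.93 to 9.47 in CD44 KO, 1.34 to 1.46 in MDA-MB-231 CD44 WT and 1.78 to 3.26 in CD44 KO. Within that sum, PTPRC was 0.37 CPM in Hs578T CD44 WT and 3.78 CPM in CD44 KO. Of the 2 leukocyte markers tested in edgeR, 1 passed an adjusted p of 0.01 with CD44 KO in Hs578T (higher) and 0 in MDA-MB-231. The summed level of 5 endothelial markers was 14.8 to 17.6 and 16.6 to 17.2 CPM in Hs578T, and 6.17 to 9.71 and 14.1 to 15.6 CPM in MDA-MB-231, and the part of either list in the results was not tested. Among the members, MDA-MB-231 CD44 WT replicate 1 was the lowest library of its group for 5 of 9 tested genes (IL1A, IL1B, IL6, IL11 and IL6ST) and the highest for 3 (IL18, CLCF1 and SOCS3). MDA-MB-231 CD44 KO replicate 1 was the lowest of its group for 6 (IL1A, IL1B, IL6, IL11, LIF and IL6ST). For some of these genes, though not all, the change is also given with such a library left out. The columns of the count table carry running numbers, and those of MDA-MB-231 CD44 WT are 3, 7 and 11. The sample descriptions tie column 7 to replicate 3 and column 11 to replicate 1, whereas column 3 stands in the descriptions of more than 1 replicate. By elimination column 3 belongs to the remaining replicate of the group. It was nonetheless fitted without a replicate number and is called the unnumbered library here.

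**Figure D1:**
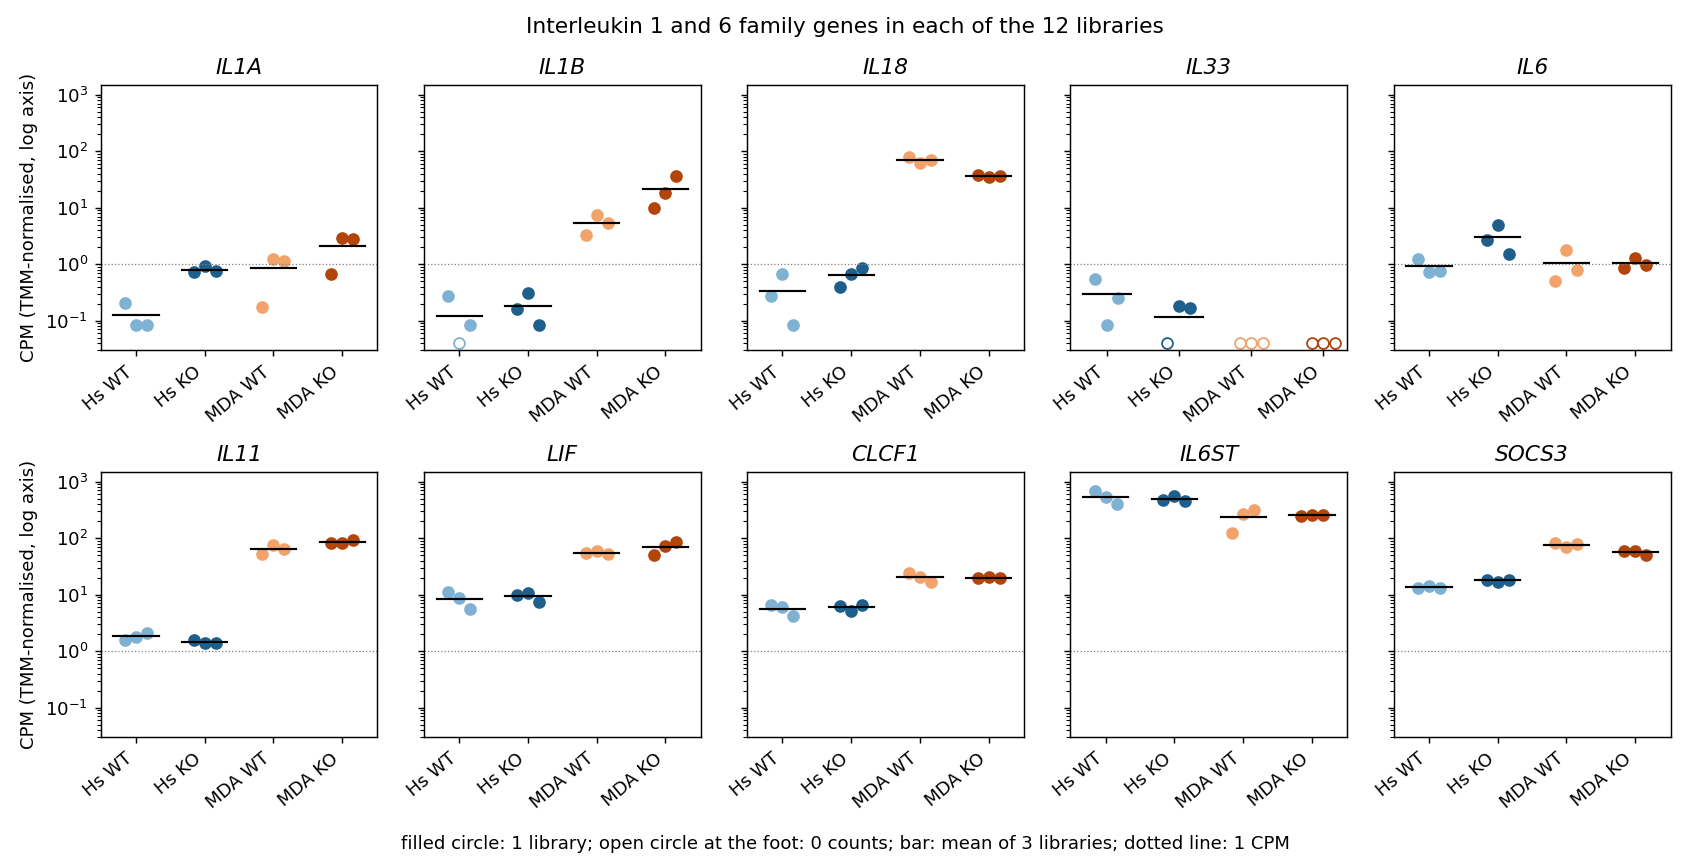
TMM-normalised CPM (log axis) of the 10 genes in each library of both lines (WT and KO of CD44), where each filled circle is 1 library, an open circle at the foot is a count of 0 and the bar is the mean of 3 libraries. IL1B, IL18, IL11, LIF, CLCF1 and SOCS3 lay higher in every MDA-MB-231 library than in every Hs578T library, IL6ST lay lower, and IL33 had no count in MDA-MB-231.

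IL1B, the secreted IL-1 that caspase 1 matures, rose with CD44 KO in MDA-MB-231 and was near the detection limit in Hs578T. In MDA-MB-231 CD44 WT it was 3.26 CPM in replicate 1, 7.38 CPM in replicate 3 and 5.35 CPM in the unnumbered library, and in CD44 KO it was 9.83, 18.2 and 36.1 CPM in replicates 1, 2 and 3. Every CD44 KO library lay above every CD44 WT library, and the KO libraries spread more widely than the WT libraries. The mean rose from 5.33 ± 2.06 to 21.4 ± 13.4 CPM (SD, n = 3), a 3.96-fold increase (log2 fold change 1.99, SE 0.39, adjusted p = 0.00453 from the quasi-likelihood test of edgeR, Benjamini-Hochberg adjusted over all genes tested and called at 0.01). The call was lost when a library was left out in 4 of 12 fits, with the direction kept: without WT replicate 1 (log2 fold change 1.73, adjusted p = 0.0197), without the unnumbered WT library (1.99, adjusted p = 0.0139), without KO replicate 2 (2.1, adjusted p = 0.0125) and without KO replicate 3 (1.41, adjusted p = 0.0208). Without CD44 KO replicate 1 the value was 2.33 (adjusted p = 0.000755). It was also above 0.01 in DESeq2 (adjusted p = 0.0154) and with MDA-MB-231 fitted alone (0.0296). In Hs578T, IL1B had 4, 0 and 1 counts in the CD44 WT libraries and 2, 5 and 1 in the CD44 KO libraries, so no change could be resolved at this depth (log2 fold change 0.57, SE 1.51, adjusted p = 0.851). The difference of the changes between the lines did not pass the test either (-1.42, SE 1.64, adjusted p = 0.669).

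IL1A, the IL-1 that is active without cleavage, was higher on average in the CD44 KO cells of both lines but did not pass the test in either. In Hs578T it was 0.21, 0.08 and 0.08 CPM in the CD44 WT libraries (3, 1 and 1 counts) and 0.72, 0.92 and 0.77 CPM in the CD44 KO libraries (9, 15 and 9 counts). The groups did not overlap, and the fitted log2 fold change was 2.56 (SE 0.86, adjusted p = 0.0537). In MDA-MB-231 it was 0.17, 1.22 and 1.16 CPM in CD44 WT and 0.68, 2.86 and 2.77 CPM in CD44 KO. Replicate 1 was the low library in both of these groups, the groups overlapped, and the log2 fold change was 1.32 (SE 0.53, adjusted p = 0.14). With a library left out it ran from 0.84 (without replicate 1 of CD44 WT) to 1.72 (without replicate 1 of CD44 KO), and the adjusted p was 0.0312 at the lowest. Without the CPM filter the Hs578T value passed (adjusted p = 0.000648), and over the 12 fits with a library left out its adjusted p ran from 0.0200 to 0.154.

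IL18, which acts with IL-12 on interferon gamma production, fell with CD44 KO in MDA-MB-231. It was 79.7, 62.5 and 69.5 CPM in replicate 1, replicate 3 and the unnumbered library of CD44 WT and 37.5, 35.2 and 36.6 CPM in CD44 KO. The KO libraries lay close together and all below the WT libraries. The mean fell from 70.6 ± 8.64 to 36.5 ± 1.16 CPM, which is 1.94-fold lower (log2 fold change -0.95, SE 0.15, adjusted p = 0.000634). The call held in 12 of 12 fits with a library left out, where the log2 fold change ran from -1.03 to -0.86 and the adjusted p reached 0.00689 at most. In Hs578T, IL18 was below 1 CPM in every library, where the 3 control libraries held 13 counts in all and the 3 KO libraries 26 (log2 fold change 0.91, SE 0.50, adjusted p = 0.25). The difference between the lines was 1.86 (SE 0.51, adjusted p = 0.03) and did not pass 0.01 in edgeR with all libraries. It passed in DESeq2 (1.87, adjusted p = 0.0055), without the CPM filter (1.85, adjusted p = 0.00234) and without Hs578T CD44 WT replicate 2 (2.65, adjusted p = 0.00873).

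IL33, a nuclear alarmin of barrier tissues, was barely detected. Hs578T CD44 WT libraries held 8, 1 and 3 counts and CD44 KO libraries 0, 3 and 2. All 6 MDA-MB-231 libraries had 0 counts, which allows a level of up to 0.0395 CPM over the 6 libraries (3 counts, counting error only), and no test was made. Of the 8 further IL-1 family ligands and antagonists, 1 passed the expression filter, and it had no call in either line in edgeR and no unadjusted p under 0.05. IL1RN, the secreted IL-1 receptor antagonist, had 1 count over all 12 libraries.

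IL6, the founding ligand of its family, was low in both lines and highest on average in Hs578T CD44 KO. In Hs578T it was 1.25, 0.74 and 0.76 CPM in the CD44 WT libraries and 2.73, 4.87 and 1.54 CPM in the CD44 KO libraries. All KO libraries lay above all WT libraries, with replicate 2 the highest and replicate 3 the closest to the controls. The mean was 0.917 ± 0.287 CPM in WT and 3.04 ± 1.69 CPM in KO (log2 fold change 1.73, SE 0.45, adjusted p = 0.0163), above the threshold of 0.01. The value passed without CD44 KO replicate 3 (2.05, adjusted p = 0.00773) and in DESeq2 (1.74, adjusted p = 0.00966), while without CD44 KO replicate 2 the adjusted p was 0.136 (log2 fold change 1.19). In MDA-MB-231 IL6 was 0.51, 1.78 and 0.80 CPM in CD44 WT and 0.85, 1.27 and 0.99 CPM in CD44 KO, a log2 fold change of 0.02 (SE 0.51), and the KO range lay inside the WT range. The changes of the lines differed by 1.71 (SE 0.69, adjusted p = 0.131), which did not pass.

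IL11, LIF and CLCF1, the other IL-6 family ligands followed, were abundant in MDA-MB-231 and did not pass the test with CD44 KO in either line in edgeR with the CPM filter. IL11, a stromal and bone-active cytokine, was 52.1, 77.2 and 63.5 CPM in MDA-MB-231 CD44 WT and 81.1, 83.8 and 93.3 CPM in CD44 KO. These groups did not overlap, and the log2 fold change of 0.42 (SE 0.12, adjusted p = 0.0426) did not pass 0.01, with a range of 0.29 (without CD44 WT replicate 1) to 0.57 over the fits with a library left out. Without the CPM filter it passed (0.44, adjusted p = 0.00991). In Hs578T, IL11 was 1.6, 1.81 and 2.12 CPM in WT and 1.6, 1.42 and 1.36 CPM in KO (log2 fold change -0.32, SE 0.26, adjusted p = 0.476). LIF, which acts through LIFR and gp130, was 53.9, 59.3 and 52.2 CPM in MDA-MB-231 CD44 WT and 51.3, 71.6 and 84.4 CPM in CD44 KO. KO replicate 1 lay just under the WT range of LIF and KO replicates 2 and 3 above it (log2 fold change 0.32, SE 0.19, adjusted p = 0.332). In Hs578T, LIF ran from 5.59 to 11.2 CPM in WT and from 7.42 to 10.9 CPM in KO (0.14, SE 0.24). CLCF1, a ligand of the CNTF receptor, ran from 4.23 to 6.45 CPM in Hs578T WT and 5.18 to 6.57 CPM in KO, whereas MDA-MB-231 gave 16.7 to 24.0 CPM in WT and 19.4 to 20.4 CPM in KO. Its log2 fold changes were 0.09 (SE 0.19) and -0.05 (SE 0.16), and the groups of each line overlapped.

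IL6ST, the signalling chain that most IL-6 family receptors share, did not pass the test with CD44 KO in either line and was the most abundant member per length in Hs578T. In Hs578T it was 673, 539 and 400 CPM in CD44 WT and 483, 560 and 454 CPM in CD44 KO (log2 fold change -0.11, SE 0.24, adjusted p = 0.836). In MDA-MB-231 it was 123, 264 and 312 CPM in CD44 WT and 252, 257 and 254 CPM in CD44 KO (0.13, SE 0.24, adjusted p = 0.82). The KO libraries of MDA-MB-231 were nearly equal, while replicate 1 of the WT group was well under its partners. Without that replicate the log2 fold change was -0.18, so its direction depends on 1 library.

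SOCS3, the inhibitor that gp130 signalling induces, moved in opposite directions in the lines, and the difference between the lines passed the test. In Hs578T it was 12.97, 14.3 and 13.2 CPM in CD44 WT and 18.2, 17.02 and 18.4 CPM in CD44 KO. Every KO library was higher there (log2 fold change 0.41, SE 0.11, adjusted p = 0.0233). In MDA-MB-231 it was 82.6, 69.2 and 77.4 CPM in CD44 WT and 58.6, 60.3 and 50.8 CPM in CD44 KO, and every KO library was lower (-0.43, SE 0.10, adjusted p = 0.0107). Neither line's own value passed 0.01 with all libraries, and that of MDA-MB-231 passed in DESeq2 (adjusted p = 0.00207), with library size only (0.00993), with a filter of 10 counts (0.00987) and in edgeR's newer quasi-likelihood fit (0.00983). The difference of the changes was 0.84 (SE 0.15, adjusted p = 0.00229), and it passed in 12 of 12 fits with a library left out, where it ran from 0.76 to 0.90.

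**Figure D2:**
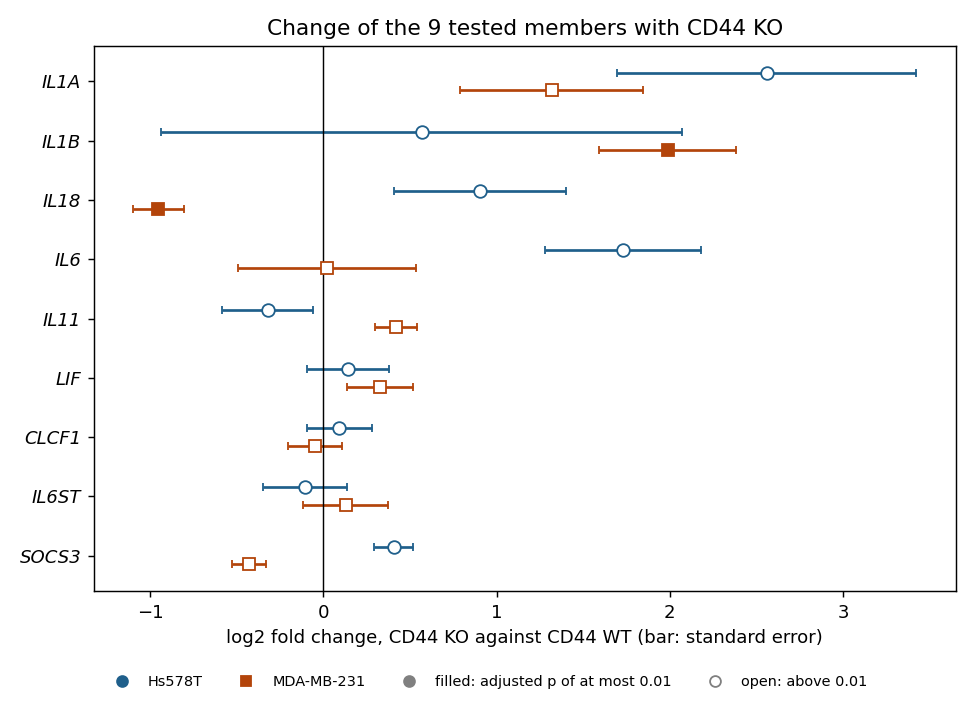
Log2 fold change of CD44 KO against CD44 WT (x axis, bar: standard error) for the 9 tested members in Hs578T (circles) and MDA-MB-231 (squares), filled where the adjusted p was at most 0.01. IL1B (1.99) and IL18 (-0.95) in MDA-MB-231 are the filled symbols, and SOCS3 lies at 0.41 and -0.43 on either side of 0.

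With CD44 KO in Hs578T, 0 of 9 tested members passed an adjusted p of 0.01 in edgeR, where 7.51% of all genes tested did (3.64% higher, 3.86% lower). At an unadjusted p under 0.05 there were 3 (IL1A, IL6 and SOCS3), beside 4339 of all 15836 genes tested, and DESeq2 called 1 (IL6). In these same 3 genes every KO library lay above every WT library, against 37.3% of all genes tested whose groups did not overlap in either direction. The members' median log2 fold change was 0.405, beside -0.00162 for all genes tested. At an adjusted p of 0.05, where 14.2% of all genes passed, 2 members (IL6 and SOCS3) passed. Of the 9 members, IL1A, IL1B and IL18 were below 1 CPM in every Hs578T library and passed the expression filter through MDA-MB-231. The counts and the median above include them. With Hs578T filtered and fitted alone, 6 members were in the fit and 0 passed 0.01.

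In MDA-MB-231, 2 of 9 passed at 0.01, IL1B higher and IL18 lower, where 4.62% of all genes tested passed (1.97% higher, 2.65% lower). The groups of 4 members did not overlap (IL1B and IL11 higher, IL18 and SOCS3 lower), against 25.5% of all genes. The same 4 passed at an adjusted p of 0.05, where 9.59% of all genes did, and the median over the members was 0.128, beside -0.00958 for all genes tested. For the difference of the changes, 1 of 9 (SOCS3) passed at 0.01, where 4.12% of all genes passed, and 2 (SOCS3 and IL18) at 0.05, where 10.5% did. Each member is 11.1% of the 9 tested, so these shares move in large steps and the calls are reported gene by gene.

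**Figure D3:**
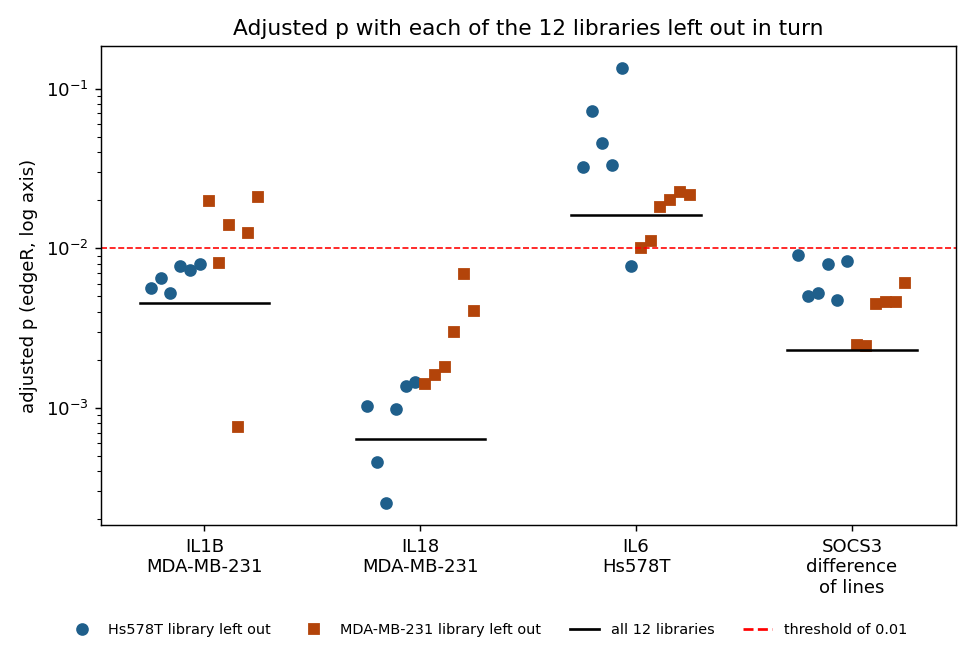
Adjusted p (log axis) of IL1B and IL18 in MDA-MB-231, IL6 in Hs578T and the SOCS3 difference between the lines, with each of the 12 libraries left out in turn (circles: an Hs578T library, squares: an MDA-MB-231 library), beside the value with all libraries (black line) and the threshold of 0.01 (dashed line). IL18 and SOCS3 stayed under the dashed line throughout, IL1B crossed it in 4 fits and IL6 dropped below it in 1.

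Far more of the genes tested differed between the lines than passed with CD44 KO in either line. In CD44 WT cells, 7 of 9 tested members differed between MDA-MB-231 and Hs578T, 6 higher and 1 lower in MDA-MB-231, where 61.5% of all genes tested differed (29.4% higher, 32.2% lower). Of these members, IL1A, IL1B and IL18 passed the expression filter through MDA-MB-231, as each was below 1 CPM in every Hs578T library. IL18 stood 203-fold higher in MDA-MB-231 (log2 difference 7.66, SE 0.26), IL1B 38.4-fold (5.26, SE 0.78) and IL11 35.0-fold (5.13, SE 0.18). LIF (6.43-fold), SOCS3 (5.66-fold) and CLCF1 (3.63-fold) were higher too. IL6ST was 2.31-fold lower (log2 difference -1.21, SE 0.25, adjusted p = 0.000419). The IL1A difference (2.62, SE 0.87, adjusted p = 0.0114) did not pass in edgeR with all libraries, but did in DESeq2 (adjusted p = 0.00472), without the CPM filter (9.31e-05), with a block of consecutive label numbers (0.00196) and without replicate 1 of MDA-MB-231 CD44 WT (3.1, adjusted p = 0.00162) or of CD44 KO (2.63, adjusted p = 0.00316). The IL6 difference did not pass (0.17, SE 0.53).

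Ordered over the 4 groups, IL1B was highest in MDA-MB-231 CD44 KO, then MDA-MB-231 CD44 WT, then Hs578T, whose groups overlapped. IL11 followed the same order of lines, with MDA-MB-231 KO above WT and overlapping Hs578T groups. IL18 and SOCS3 were highest in MDA-MB-231 CD44 WT and next in MDA-MB-231 CD44 KO. For SOCS3 all neighbours in the order were apart, with Hs578T KO next and Hs578T WT the lowest, whereas for IL18 the Hs578T groups overlapped. LIF and CLCF1 separated the lines only, with the KO and WT groups of each line overlapping, and IL6ST did so in the opposite order. IL6 was highest in Hs578T KO, and its other 3 groups overlapped with their neighbours. IL1A was highest in MDA-MB-231 KO, overlapping MDA-MB-231 WT, which overlapped Hs578T KO, and Hs578T WT lay under Hs578T KO. Per kilobase of exons in MDA-MB-231 CD44 WT, SOCS3 (27.9 CPM per kb), IL18 (26.9), IL6ST (25.0) and IL11 (24.1) were at like levels, LIF (13.9) and CLCF1 (10.4) were lower, and IL1B (1.72), IL6 (0.499) and IL1A (0.4) were the lowest of the 9 tested members, while IL33 had no count. In Hs578T CD44 WT, IL6ST stood at 57.8 CPM per kb and SOCS3 at 4.94, and no ligand exceeded 2.84 CPM per kb.

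The receptors that these ligands need were expressed unevenly between the lines, and those past the test with CD44 KO in edgeR were the IL-1 receptor chains IL1R1 and IL1RAP. IL1R1, the signalling receptor for both forms of IL-1, was 35.3 ± 3.63 CPM in Hs578T CD44 WT and 24.1 ± 1.27 CPM in CD44 KO (log2 fold change -0.55, SE 0.16, adjusted p = 0.0295). That difference did not pass in edgeR with all libraries, but did in DESeq2 (adjusted p = 0.00284), with Hs578T fitted alone (0.00361), without the CPM filter (0.00715) and without MDA-MB-231 CD44 WT replicate 1 (0.00433) or the unnumbered library (0.00752). In MDA-MB-231 it rose from 1.23 ± 0.69 to 3.11 ± 0.22 CPM (1.33, SE 0.28, adjusted p = 0.00641). The direction was opposite in the lines, and the difference of the changes passed (-1.87, SE 0.32, adjusted p = 0.00161) in 12 of 12 fits with a library left out. The call in MDA-MB-231 alone was kept in 3 of those 12, with the adjusted p between 0.000831 and 0.03, and was lost also with MDA-MB-231 fitted alone (adjusted p = 0.0553). Leaving out any 1 of 9 libraries ended it, namely Hs578T CD44 WT replicate 2, each Hs578T CD44 KO library, MDA-MB-231 CD44 WT replicates 1 and 3 and each MDA-MB-231 CD44 KO library, while the log2 fold change stayed between 1.00 and 1.81.

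IL1RAP, the accessory chain that IL-1, IL-33 and IL-36 receptors share, rose in Hs578T from 10.8 ± 1.39 to 30.8 ± 6.50 CPM (log2 fold change 1.52, SE 0.24, adjusted p = 0.000528), in 12 of 12 fits with a library left out. In MDA-MB-231 it was 14.2 ± 5.97 and 16.1 ± 1.4 CPM (0.19, SE 0.24, adjusted p = 0.70). The difference of the changes was 1.33 (adjusted p = 0.022) and did not pass in edgeR with all libraries, but did in DESeq2 (adjusted p = 0.004), without the CPM filter (2.14e-07) and without MDA-MB-231 CD44 WT replicate 1 (1.62, adjusted p = 0.000785). IL18R1 and IL1RL1, the ligand-binding receptors for IL-18 and IL-33, were too low to be tested, with at most 20 and 10 counts in any group of 3 libraries. SIGIRR, an inhibitory member of the receptor family named after its values were seen, had KO libraries all above WT in Hs578T (0.25, adjusted p = 0.401) and all below in MDA-MB-231 (-0.78, adjusted p = 0.0326).

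Of the 7 receptors listed for the IL-6 family, 6 were tested and 0 passed in either line in edgeR. At an unadjusted p under 0.05 there were 2 in each line, beside 4339 (Hs578T) and 3713 (MDA-MB-231) of all 15836 genes tested. IL6R, which binds IL-6, was 4.80 ± 0.46 and 3.36 ± 0.48 CPM in Hs578T CD44 WT and KO (log2 fold change -0.52, SE 0.19, adjusted p = 0.0769) and 6.91 ± 0.65 and 6.52 ± 0.88 CPM in MDA-MB-231. IL11RA was 5.45 ± 0.50 and 5.95 ± 1.35 CPM in Hs578T and 2.65 ± 0.58 and 3.77 ± 0.42 CPM in MDA-MB-231. LIFR, the LIF receptor, had log2 fold changes of -0.40 (SE 0.20) and 0.39 (SE 0.20), and OSMR, the oncostatin M receptor, -0.10 (SE 0.16) and -0.12 (SE 0.16). IL31RA, the IL-31 receptor, is named after its values were seen, with every KO library above every WT library in both lines (0.50, adjusted p = 0.0573, and 0.50, adjusted p = 0.0399). CNTFR, the alpha receptor for CLCF1, had 1 count over the 12 libraries. Of the 7 further IL-6 family ligands, 3 were tested and 0 passed in either line in edgeR, with 0 at an unadjusted p under 0.05.

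Downstream and around these receptors, 108 pathway genes were listed by role, of which 80 were tested. In Hs578T, 7 passed (3 higher, 4 lower) and in MDA-MB-231 5 passed (3 higher, 2 lower), which is 8.75% and 6.25% of those tested, near the shares of all genes given above. Their median log2 fold changes were -0.03 and 0.13. The count in Hs578T ran from 1 to 10 with a library left out, and it was lowest without a CD44 WT library (1 without replicate 1, 2 without replicate 2) or a CD44 KO library (2 without replicate 1, 2 without replicate 2, 3 without replicate 3). In MDA-MB-231 the count ran from 2 to 5, at its lowest of 2 when replicate 3 of CD44 WT, or replicate 2 or 3 of CD44 KO, was left out.

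Among 14 genes of IL-1 signalling, 1 passed in each line. IRAK1, the kinase recruited to the receptor, fell in Hs578T from 210 ± 21.5 to 136 ± 17.7 CPM (log2 fold change -0.63, SE 0.12, adjusted p = 0.00178, called in 10 of 12 fits with a library left out). TOLLIP, an adaptor that restrains IRAK1, fell in MDA-MB-231 from 62.4 ± 4.80 to 37.9 ± 2.38 CPM (-0.72, SE 0.10, adjusted p = 0.00024, in 12 of 12), and its change differed from that in Hs578T. IRAK1 had a log2 fold change of -0.01 (SE 0.12) in MDA-MB-231, and TOLLIP 0.06 (SE 0.09) in Hs578T. TOLLIP (chr11:1274371-1309654) and SIGIRR (chr11:405716-417455) lie on the chromosome of the edited gene CD44 (chr11:35138870-35232402). The part of that position in their changes was not tested.

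Of 10 genes for the processing and release of IL-1 and IL-18, 6 were tested and 1 passed. GSDME, a pore-forming gasdermin, rose in MDA-MB-231 from 64.4 ± 2.62 to 83.8 ± 1.61 CPM (log2 fold change 0.38, SE 0.08, adjusted p = 0.00704, called in 6 of 12 fits with a library left out). The call was lost with the replicate block, which leaves out the unnumbered library (0.40, adjusted p = 0.0267), with MDA-MB-231 fitted alone (0.0423) and without the CPM filter (0.0126). CASP1, which encodes caspase 1 and was singled out after its values were seen, was 1.80 ± 0.84 and 3.76 ± 0.55 CPM in Hs578T CD44 WT and KO (1.04, SE 0.33, adjusted p = 0.0467). In MDA-MB-231 it was 1.25 ± 0.52 and 0.429 ± 0.062 CPM (-1.56, SE 0.48, adjusted p = 0.053). The KO and WT libraries did not overlap in either line, and the difference of the changes was 2.59 (adjusted p = 0.0103), just above the threshold. It passed in DESeq2 (adjusted p = 0.00228), without the CPM filter (5.97e-05), with a filter of 10 counts (0.00908), with robust estimation (0.00899), with the block of consecutive label numbers (0.0097) and without Hs578T CD44 WT replicate 3 (2.27, adjusted p = 0.00825) or MDA-MB-231 CD44 WT replicate 1 (2.89, adjusted p = 0.00408).

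None of the 9 tested genes of IL-6 signalling (JAK kinases, STATs and phosphatases) passed in edgeR in either line. At an unadjusted p under 0.05 there was 1 in each, beside 4339 (Hs578T) and 3713 (MDA-MB-231) of all 15836 genes tested. STAT3 was 131 ± 7.40 and 128 ± 7.34 CPM in Hs578T and 215 ± 34.5 and 209 ± 2.72 CPM in MDA-MB-231, and was chosen for mention after its values were seen. Of the 9 other feedback genes, SOCS5 fell in Hs578T (log2 fold change -0.75, SE 0.18, adjusted p = 0.00922) and SOCS6 rose in MDA-MB-231 (0.72, SE 0.15, adjusted p = 0.00521). With a library left out these were called in 2 and 8 of 12 fits. The SOCS5 call was lost with RLE size factors (adjusted p = 0.0104) and with library size only (0.0114). The SOCS6 call was lost with MDA-MB-231 fitted alone (adjusted p = 0.0362). Both encode members of the SOCS family, of which SOCS3 is the one known for binding gp130.

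Of 17 STAT3 target genes, 12 were tested, 2 rose in Hs578T and 0 passed in MDA-MB-231 in edgeR. In MDA-MB-231, 3 had an unadjusted p under 0.05, beside 3713 of all 15836 genes tested. VEGFA, the angiogenic growth factor, rose in Hs578T from 154 ± 4.57 to 315 ± 6.56 CPM (log2 fold change 1.04, SE 0.21, adjusted p = 0.00326). In MDA-MB-231 VEGFA was 126 ± 22.2 and 174 ± 65.8 CPM (0.46, SE 0.21, adjusted p = 0.19), and it passed there without CD44 KO replicate 1 (0.74, adjusted p = 0.00176) and without the CPM filter (0.000214). FOSL1, an AP-1 subunit, rose in Hs578T from 12.7 ± 0.93 to 18.6 ± 2.07 CPM (0.55, SE 0.13, adjusted p = 0.00746). In Hs578T, VEGFA and FOSL1 were called in 6 and 5 of 12 fits with a library left out, and the part of IL-6 family signalling in either was not tested.

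Of 19 IL-1 and NF-kappaB target genes, 16 were tested. CCL2, a monocyte-attracting chemokine, fell in both lines, from 5.39 ± 1.15 to 1.83 ± 0.46 CPM in Hs578T (log2 fold change -1.53, SE 0.31, adjusted p = 0.00371) and in MDA-MB-231 from 51.5 ± 17.8 to 3.65 ± 0.69 CPM (-3.85, SE 0.26, adjusted p = 2.54e-07). BIRC3, an inhibitor of apoptosis, fell in Hs578T from 6.95 ± 1.11 to 3.36 ± 0.71 CPM (-1.03, SE 0.23, adjusted p = 0.00656) and was 25.8 ± 6.81 and 36.8 ± 2.78 CPM in MDA-MB-231 (0.51, SE 0.17, adjusted p = 0.0837, and 0.00833 without the CPM filter). The CCL2 call in MDA-MB-231 held in 12 of 12 fits with a library left out, while those in Hs578T held in 8 (CCL2) and 7 (BIRC3). In MDA-MB-231, 12 of the 16 target genes had a positive and 4 a negative log2 fold change, with a median of 0.32. The 80 tested pathway genes, which include them, had 46 positive and 34 negative values (median 0.13), and the median of all genes tested was -0.00958. CCL2 was the only one of the 16 past the threshold, in the lower direction. The part of IL1B in these changes was not tested.

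**Figure D4:**
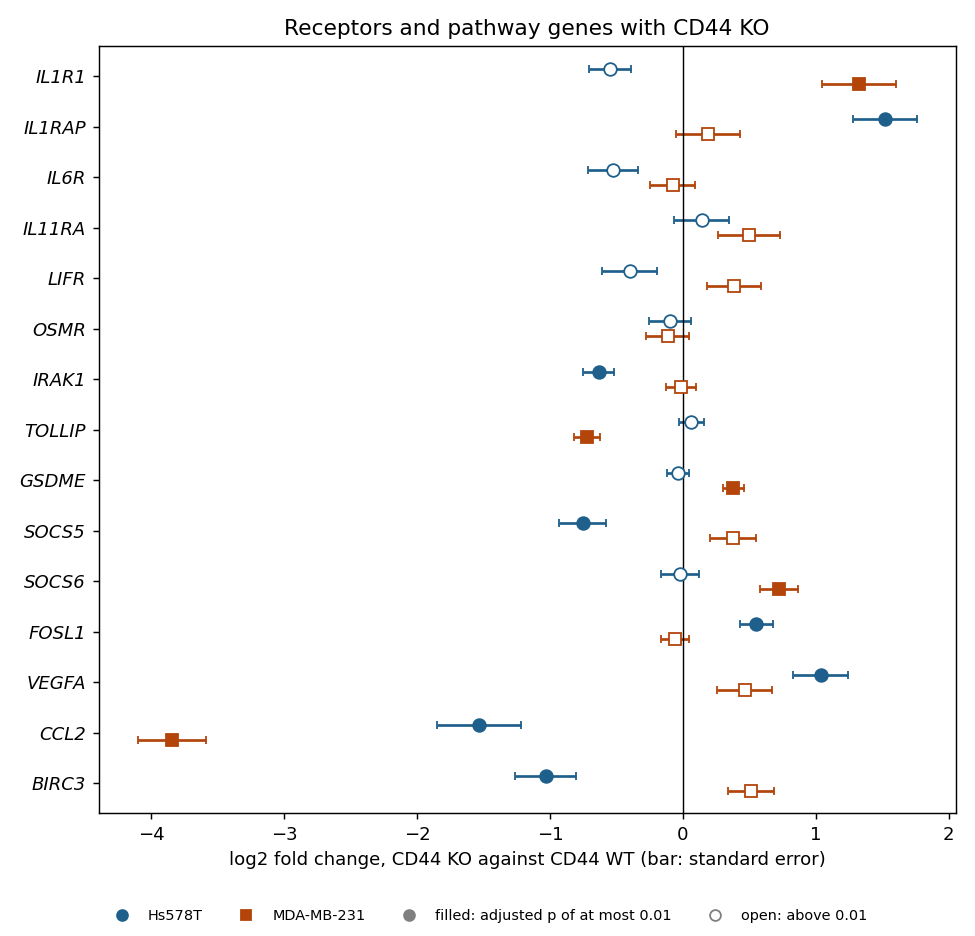
Log2 fold change of CD44 KO against CD44 WT (x axis, bar: standard error) for receptors of the IL-1 and IL-6 families and the pathway genes past the threshold in either line, in Hs578T (circles) and MDA-MB-231 (squares), filled where the adjusted p was at most 0.01. CCL2 lies left of 0 in both lines (-1.53 and -3.85), while IL1R1, SOCS5 and BIRC3 lie on opposite sides of 0.

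Likeness of expression across the 12 libraries, as Pearson's r of log2 CPM, is given as a description. For IL11 the nearest genes were GALNT6, FNDC4 and MAP10 (r = 0.998), for SOCS3 ANXA2, PELO and WDR45B (0.997, 0.997 and 0.995) and for IL18 SQOR, C4BPB and RELT (0.995, 0.993 and 0.993). LIF was nearest to TMCC3, CYP27A1 and ADAM8 (0.993, 0.993 and 0.989), CLCF1 to LARGE2, UNC13D and EBP (0.993, 0.993 and 0.992), IL1B to ABHD17C, CARD8 and LGR5 (0.990, 0.988 and 0.985) and IL6ST to GOLM2, MAN1A2 and PIK3CB (0.985, 0.980 and 0.978). Between 462 (IL6ST) and 3040 (IL11) genes had r over 0.9 with these members, and all of these points share the contrast between the lines. IL1A had 9 such genes, among them AZI2 and STK17B (0.942 and 0.931), and IL6 had 0, its nearest being ZFAND1, HEATR6 and PTPRJ (0.874, 0.872 and 0.863). Between the members, IL1A and IL1B had r = 0.715 and IL1B and IL6 r = -0.246.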

How the data were processed

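The deposited table held raw counts per gene for the 12 libraries (TruSeq stranded mRNA, paired 50 bp reads), which the authors made by alignment to GRCh38 with HISAT2 2.1.0 and counting with featureCounts 1.6.2 on GENCODE 28, at a mapping quality of at least 10. Symbols came from GENCODE 44 (57754 of 58381 identifiers). No 2 libraries were identical. All libraries were fitted together in edgeR 4.0.16 (R 4.3.3) with TMM normalisation, 4 group means and quasi-likelihood tests, for genes over 1 CPM in at least 2 libraries and of at least 300 nt, since the study's stated length limit reads the other way round. Adjusted p of at most 0.01 was called. CPM were TMM-normalised, and log2 CPM used a prior count of 2. On simulated Hs578T data (15075 genes), 77% of log2 changes of 1 and 96% of 2 were recovered with 0 false calls. Each simulated gene had its mean level over all 12 libraries, and changes were placed only above 1 CPM. This recovery does not cover members as low as IL1A, IL1B and IL18 were in Hs578T. The members and gene lists were chosen with earlier results of these data known. Named genes were all members, CD44, IL1R1, IL1RAP, IL18R1, IL1RL1, IL6R, IL11RA, LIFR, OSMR, CNTFR, IL1RN, pathway genes past the threshold in either line, and each member's 3 nearest genes, of which 1 is not reported here. Alternatives included DESeq2 1.42.0, other normalisations and filters, blocks and each library left out. Intervals and floors cover counting error only.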

Additional observations from a re-analysis of the deposited data

Results flagged for a closer look

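The change with CD44 KO differed between the lines for 6 of the genes followed, by a test of the difference itself (Hs578T minus MDA-MB-231, edgeR's quasi-likelihood test, adjusted over all genes tested). SOCS3 differed by 0.84 on the log2 scale (0.41 in Hs578T and -0.43 in MDA-MB-231, SE 0.15, adjusted p = 0.00229), with all 3 KO libraries above the controls in one line and below them in the other. IL1R1 differed by -1.87 (-0.55 and 1.33, SE 0.32, adjusted p = 0.00161), TOLLIP by 0.78 (0.06 and -0.72, SE 0.13, adjusted p = 0.00184) and SOCS5 by -1.13 (-0.75 and 0.38, SE 0.25, adjusted p = 0.00857). CCL2 fell in both lines, and the falls differed by 2.31 (-1.53 and -3.85, SE 0.42, adjusted p = 0.00269), while BIRC3 differed by -1.54 (-1.03 and 0.51, SE 0.29, adjusted p = 0.00327). The SOCS3, IL1R1 and TOLLIP differences passed in all 12 fits with a library left out, that of CCL2 was lost without Hs578T CD44 KO replicate 2 (2.07, adjusted p = 0.0223), and those of BIRC3 and SOCS5 were lost in 4 and 9 of the 12. The SOCS5 difference was also lost with library size only (-1.15, adjusted p = 0.0103). No group here has the 4 samples that a check for single outlying samples needs.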

How the results depend on the processing

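Members called in Hs578T CD44 KO (0) became 1 in DESeq2, 2 without the CPM filter and 2 at an adjusted p of 0.05, and ranged from 0 to 1 with each library left out in turn. In MDA-MB-231 the 2 calls became 1 with each line fitted alone, 4 at 0.05, 3 with library size only, 3 with a 10-count filter and 3 in the newer quasi-likelihood fit (SOCS3 added), 3 without the CPM filter (IL11 added) and 1 with a log2 fold change of at least 1 required, and ranged from 1 to 2 with a library left out. DESeq2 also made 2 calls there, of IL18 and SOCS3 in place of IL1B. The difference between the lines (1) became 2 in DESeq2, 2 without the CPM filter, 2 at 0.05 and 0 with a log2 difference of at least 1 required, and ranged from 1 to 2. The pathway genes called in Hs578T (7) became 4 with a log2 fold change of at least 1 and ranged from 1 to 10. In MDA-MB-231 (5) they became 10 without the CPM filter, 2 with each line alone, 9 at 0.05 and 2 with a log2 fold change of at least 1, and ranged from 2 to 5. The cause was not tested, except that thresholds and left-out libraries act by construction. The count of members differing between the lines in CD44 WT cells (7) stayed between 7 and 9 in all 24 alternatives.

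Directions turned only for changes that did not pass. With the replicate block, IL6 in MDA-MB-231 was -0.41 and OSMR 0.050, and with the block of consecutive label numbers IL6 was -0.050. IRAK1 in MDA-MB-231 was 0.00067 with library size only, 0.0073 without the CPM filter and 0.00065 with the line alone. With a library left out, the log2 fold change in Hs578T ran from -0.060 to 2.00 (IL1B), -0.080 to 0.40 (LIF), -0.070 to 0.21 (CLCF1), -0.28 to 0.087 (IL6ST), -0.064 to 0.27 (IL11RA), -0.071 to 0.017 (GSDME) and -0.093 to 0.046 (SOCS6). In MDA-MB-231 it ran from -0.30 to 0.68 (IL6), -0.17 to 0.080 (CLCF1), -0.18 to 0.39 (IL6ST), -0.15 to 0.032 (IL6R), -0.33 to 0.093 (OSMR), -0.096 to 0.50 (IL1RAP), -0.098 to 0.076 (IRAK1) and -0.14 to 0.065 (FOSL1). The difference between the lines ran from -2.05 to 0.020 (IL1B), -0.40 to 0.073 (LIF), -0.022 to 0.27 (CLCF1) and -0.50 to 0.075 (IL6ST), and IL6 between the lines' CD44 WT cells from -0.50 to 0.48.

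Deviations of same-numbered CD44 WT and KO libraries from their group means correlated at -0.057, 0.022 and -0.096 in Hs578T and 0.008 and 0.164 in MDA-MB-231. The unnumbered library was left out of these pairs. Libraries paired by consecutive label numbers correlated at 0.031, 0.101 and 0.134 in Hs578T and 0.099, 0.164 and 0.008 in MDA-MB-231. These values are small, but so few pairs cannot decide whether the libraries were paired. Neither block changed the members' calls with CD44 KO in either line or for the difference of these changes (0, 2 and 1 as without a block). Between the lines' CD44 WT cells, the block of consecutive label numbers added IL1A (2.62, adjusted p = 0.00196). The replicate block ended the call of GSDME in MDA-MB-231 (0.40, adjusted p = 0.0267). Depth limits IL1A, IL1B and IL18 in Hs578T, with 38, 13 and 39 counts over 6 libraries, and IL33 in both lines.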

Other observations

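Some neighbours of these cytokines separated the lines in CD44 WT cells, and are named here after their values were seen. NLRP3, the inflammasome sensor that activates caspase 1, was 9.81 ± 1.25 CPM in MDA-MB-231 CD44 WT and 0.0846 ± 0.147 CPM in Hs578T CD44 WT (log2 difference 6.80, adjusted p = 7.74e-09). CTF1, another gp130 ligand, was 5.60 ± 0.69 and 0.0737 ± 0.0698 CPM (6.0, adjusted p = 8e-09), with 3 counts in Hs578T CD44 WT. CXCL8, a neutrophil-attracting chemokine, was 9.88 ± 6.12 and 0.402 ± 0.228 CPM (4.54, adjusted p = 3.74e-06). Of the 16 tested IL-1 and NF-kappaB target genes, 13 were higher and 1 lower in MDA-MB-231, beside the shares of all genes that differed between the lines. None of these 3 genes passed the test with CD44 KO in either line.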
